A study of Mus musculus with 8 samples.

Results

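The genes described here encode the kinesin heavy and light chains, the subunits of cytoplasmic dynein and the subunits of dynactin in the mouse substantia nigra. They were taken from the deposited expression table by name: protein-coding genes whose symbols begin with Kif, Klc, Dync1, Dync2 or Dctn and a number. The rule found 56 of the 54532 genes in the table. Of these, 38 averaged 1 FPKM or more (FPKM are fragment counts scaled to gene length and library size) across the 8 libraries and are described; the other 18 had means from 0 to 0.871 FPKM. Just above that limit were Klc3 at 1.36, Kif16b at 1.53 and Kif26a at 1.69 FPKM, and just below it Kif27 at 0.871, Kif6 at 0.842 and Kif7 at 0.547 FPKM. One of the 38, Kif1bp, matches by name but encodes a protein that binds kinesins and is not a motor.

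RNA came from the substantia nigra of male C57BL/6 mice, with 2 libraries in each of 4 groups. The control group is labelled wild type (WT1, WT2). The vector group is labelled AAV-α-synuclein: an adeno-associated viral vector delivered α-synuclein, which forms the protein aggregates seen in Parkinson's disease. The AKG group received α-ketoglutarate, an intermediate of the citric acid cycle that the series title describes as dietary, and the combined group had both. The labels give no age, dose, time or transgene promoter, and they do not say whether mice without the α-synuclein vector were given an empty one. Separate animals are not stated for the 2 libraries of a group either, so the p-values measure only the spread between these libraries, which may be technical. Each library held between 16544190 and 19125423 reads, recovered from the deposited values.

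Kinesins and dynein are motor proteins that walk along microtubules and burn ATP to carry vesicles, mitochondria, RNA and protein complexes. Most kinesins move toward the plus end of the microtubule, which in an axon points away from the cell body, and cytoplasmic dynein, activated by dynactin, carries cargo back. Dopamine neurons of the substantia nigra have very long, highly branched axons, and α-synuclein itself is carried along them.

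Control library 1 stood apart from the other libraries, and differences from control are therefore given with and without it. Its mean Spearman correlation with the other 7 libraries over all genes tested was 0.926, against 0.971 to 0.975 for each of the others. The summed FPKM of the 8 neuron markers was 421 in control library 1 and 606 to 660 elsewhere, and 7 of the 8 were lowest there. Choroid plexus markers summed to 9420 FPKM in it, against 89.2 to 5255 in the other libraries, with 7 of 7 genes highest there. Markers of ependyma and motile cilia summed to 209 against 47.4 to 82.7 FPKM, with 6 of 7 highest there. Dopamine neuron markers were present in every library, apart from En1, which was listed at 0 in at least 1; they summed to 143 and 139 FPKM in the control libraries and to 55.2 to 80.7 FPKM in the other 6. Markers of excitatory neurons of the thalamus and midbrain went the other way, with sums of 88.0 and 166 FPKM in control and 188 to 249 in the other 6, and 5 of 5 had means above control in all 3 comparisons with control, also without control library 1. Red cell markers summed to 14.6 FPKM in control library 1 against 172 to 444 elsewhere, with 5 of 5 lowest there. Astrocyte markers summed to 847 against 569 to 689 FPKM, with 4 of 6 highest there. Aqp4 (31.5 FPKM) and Slc1a3 (62.8 FPKM) were inside the range of the other libraries. The part of these cells in the members' differences was not tested. In bulk tissue, fewer cells of a type and less RNA per cell cannot be told apart.

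**Figure D1:**
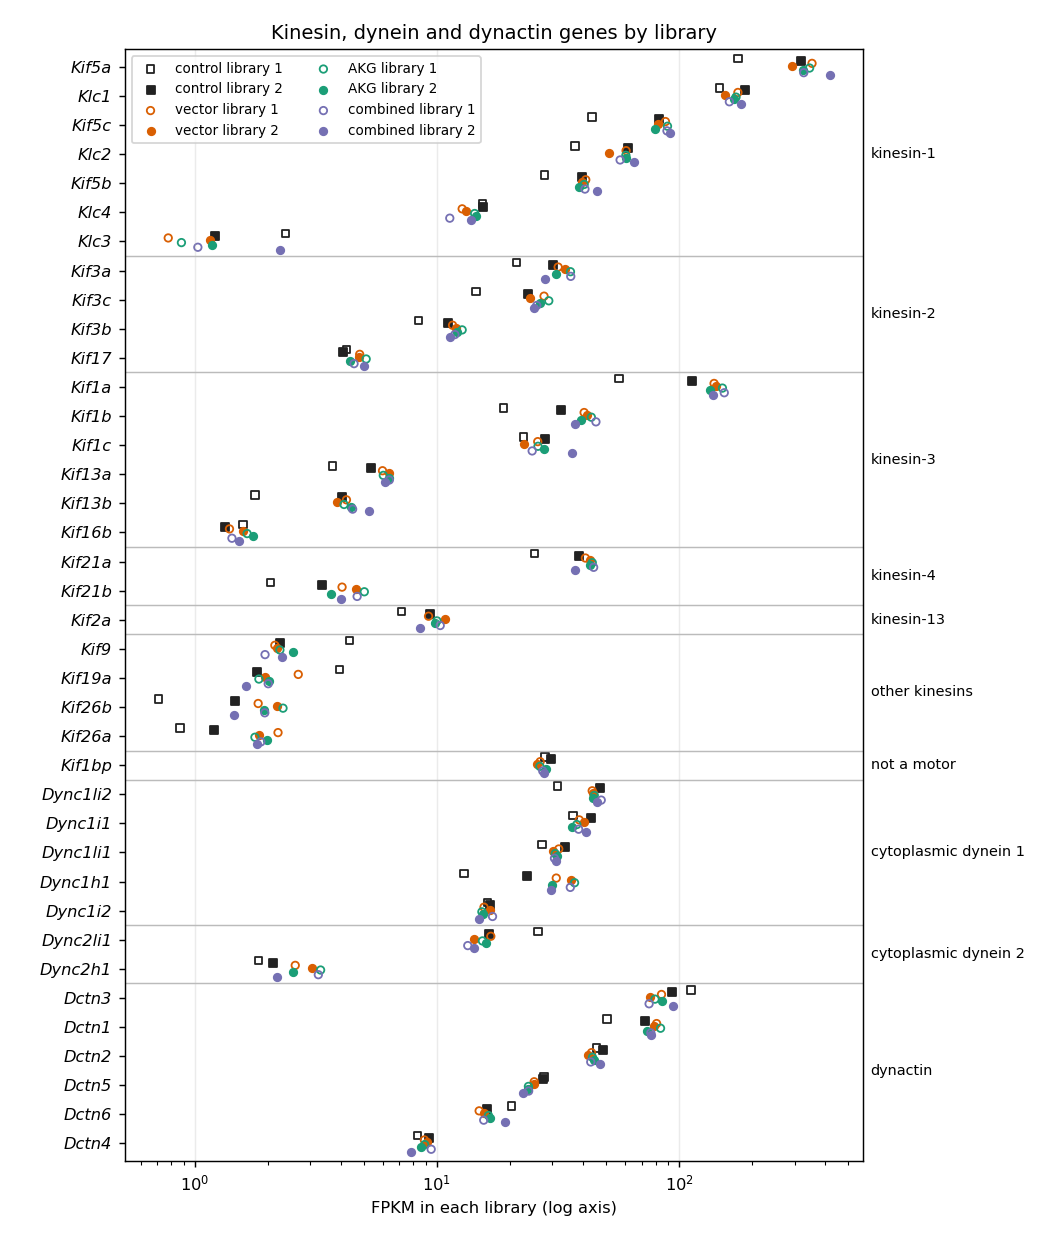
Level of each of the 38 described genes in FPKM (log axis), 1 point per library, arranged by role and by mean level; squares are control libraries, circles the other groups, open symbols library 1 and filled symbols library 2. Control library 1, the open square, was the lowest of the 8 for 23 of the 38 genes and the highest for 7.

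Kinesin-1, the classical axonal transport motor, is built from 2 heavy chains of the KIF5 type and light chains that bind cargo. All 7 of its genes were described, and they hold the most abundant member of all. Kif5a (ENSMUSG00000074657, chr10:127225696-127263348 on GRCm38), a neuronal heavy chain, was at 175 and 318 FPKM in the control libraries, 354 and 292 in the vector libraries, 346 and 324 in the AKG libraries, and 327 and 418 in the combined libraries. Only control library 1 lay outside the range of the other groups. Kif5c, the other neuronal heavy chain, had 43.7 and 82.5 FPKM in control, 87.8 and 81.5 in vector, 89.5 and 79.5 in AKG, and 89.1 and 91.9 in combined libraries. The broadly expressed Kif5b read 27.8 and 39.7 FPKM in control, 41.2 and 39.9 in vector, 40.6 and 38.5 in AKG, and 40.9 and 46.0 in combined libraries. For both genes the second control library lay among the 6 others and the first was far below them.

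The mix of heavy chains was steadier than their levels. Kif5a made up 70.6% to 75.2% of the summed FPKM of the 3 Kif5 genes in all 8 libraries, and control library 1, at 71.0%, was inside that range. The 3 genes are close in length (6990, 7395 and 7142 bases for Kif5a, Kif5b and Kif5c), and all 3 were low in control library 1. Kif5b, at 11.3% of the sum in control library 1 and 8.27% to 9.65% in the other 7, was the least reduced.

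The light chains ordered the libraries in different ways. Klc1, the main neuronal light chain, had 147 and 188 FPKM in control, 175 and 154 in vector, 172 and 168 in AKG, and 161 and 180 in combined libraries. Klc2 had 37.2 and 61.6 FPKM in control, 60.4 and 51.6 in vector, 60.3 and 60.5 in AKG, and 57.1 and 65.4 in combined libraries. Klc2 therefore supplied 18.4% of the light chain FPKM in control library 1 and 23.2% to 25.1% in the other 7. Klc4 went the other way: both control libraries, at 15.4 and 15.5 FPKM, were above the vector (12.7, 13.2), AKG (14.3, 14.6) and combined (11.3, 13.9) libraries. Klc3, the least abundant described member, was at 2.37 and 1.21 FPKM in control, 0.778 and 1.16 in vector, 0.882 and 1.18 in AKG, and 1.03 and 2.26 in combined libraries. Its high values came from control library 1 and combined library 2, the 2 libraries with the highest choroid plexus marker sums. AKG library 2 and vector library 2, with the next highest sums (2757 and 2179 FPKM), had Klc3 no higher than control library 2, where the sum was 516 FPKM. The part of choroid plexus cells in the Klc3 values was not tested. Klc3 is uncertain, because 28.1% of its exon bases overlap exons of Ercc2 on the opposite strand and no source used here says that reads were counted by strand.

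Kinesin-2 motors carry axonal vesicles and also drive transport into cilia. Kif3a pairs with Kif3b or, in neurons, with Kif3c, whereas Kif17 forms its own dimer. Kif3a was at 21.3 and 30.1 FPKM in control, 31.7 and 33.7 in vector, 35.6 and 31.1 in AKG, and 35.7 and 28.1 in combined libraries. Kif3b had 8.41 and 11.1 FPKM in control, 11.6 and 12 in vector, 12.7 and 12.2 in AKG, and 11.9 and 11.3 in combined libraries. Kif3c had 14.5 and 23.8 FPKM in control, 27.7 and 24.2 in vector, 29.0 and 26.7 in AKG, and 25.8 and 25.2 in combined libraries. Both control libraries lay below the other 6 for Kif3b and Kif3c, but the gap of control library 2 was small. For Kif3a, control library 2 lay inside the range of the others. Kif17 had 4.23 and 4.11 FPKM in control, 4.80 and 4.77 in vector, 5.11 and 4.37 in AKG, and 4.55 and 4.99 in combined libraries. Its 2 control libraries were close to each other and both below the rest.

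Kinesin-3 motors move fast over long distances. Kif1a carries precursors of synaptic vesicles, Kif1b carries mitochondria and synaptic vesicle precursors in its different isoforms, and Kif13a, Kif13b and Kif16b act on endosomal and membrane cargo. Kif1a (ENSMUSG00000014602, chr1:93015464-93101951) had 56.5 and 113 FPKM in control, 139 and 143 in vector, 151 and 134 in AKG, and 154 and 138 in combined libraries. Kif1b (ENSMUSG00000063077, chr4:149176319-149307693) had 18.8 and 32.7 FPKM in control, 40.5 and 41.5 in vector, 43.4 and 39.3 in AKG, and 45.3 and 37.3 in combined libraries. For both genes the 2 control libraries lay below all 6 others, and control library 2 was nearer to the others than to control library 1. Relative to the median of the 6 libraries outside control, control library 2 was at 0.803 for Kif1a and 0.796 for Kif1b. Kif13a showed the same order, with 3.71 and 5.36 FPKM in control and 5.96 to 6.36 FPKM in the other 6 libraries. Kif13b had 1.78 and 4.07 FPKM in control, 4.23 and 3.86 in vector, 4.14 and 4.40 in AKG, and 4.49 and 5.24 in combined libraries. Here only control library 1 was low. Kif1c, which is not restricted to neurons, was at 22.7 and 27.9 FPKM in control, 26.1 and 22.8 in vector, 26.1 and 27.7 in AKG, and 24.7 and 36.1 in combined libraries, with combined library 2 alone above the rest. Kif16b stayed between 1.33 and 1.74 FPKM in all 8 libraries. Among the 3 Kif1 motors, Kif1a supplied 57.6% of the FPKM in control library 1 and 65.2% to 68.9% in the other 7.

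The remaining kinesins mostly act on microtubules themselves. Kif21a, a kinesin-4 motor that restrains microtubule growth, had 25.2 and 38.4 FPKM in control, 41.0 and 42.7 in vector, 43.8 and 42.9 in AKG, and 44.4 and 37.2 in combined libraries. Its relative Kif21b had 2.06 and 3.37 FPKM in control, 4.06 and 4.63 in vector, 5.02 and 3.64 in AKG, and 4.68 and 4.03 in combined libraries. Only Kif21b had both control libraries below the other 6. Kif2a, a kinesin-13 that takes microtubules apart at their ends, had 7.15 and 9.38 FPKM in control and 8.53 to 10.8 in the other 6 libraries, and 19.2% of its exon bases overlap exons of Dimt1 on the opposite strand. Kif26a (ENSMUSG00000021294, chr12:112146208-112181747), an unusual kinesin that binds microtubules without walking, had 0.868 and 1.20 FPKM in control, 2.21 and 1.84 in vector, 1.77 and 1.98 in AKG, and 1.87 and 1.80 in combined libraries. Its 2 control libraries lay well below the other 6, at depths of 116 to 282 recovered reads per library. Kif26b had 0.708 and 1.47 FPKM in control, 1.83 and 2.18 in vector, 2.32 and 1.93 in AKG, and 1.95 and 1.45 in combined libraries, so control library 2 overlapped the combined group.

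Kif9 and Kif19a act in cilia, Kif9 in motile ones and Kif19a in setting their length. Kif9 was at 4.35 FPKM in control library 1, 2.24 in control library 2, and 1.95 to 2.55 in the other 6. Kif19a was at 3.97 FPKM in control library 1, 1.81 in control library 2, and 1.64 to 2.68 elsewhere. Of the kinesins below the limit, Kif27 and Kif6 were also highest in control library 1, at 1.37 and 1.33 FPKM against at most 0.994 and 0.955 in the other libraries. These 4 genes were highest in control library 1, as were 6 of 7 ependyma and motile cilia markers and 7 of 7 choroid plexus markers. Kif27 and Kif6 were lowest in control library 2 (0.553 and 0.534 FPKM), where the cilia marker sum of 55.2 FPKM was inside the range of the other 6. The part of ependymal and choroid plexus cells in the difference was not tested. None of the 8 kinesins grouped here as mitotic (Kif11, Kif15, Kif18a, Kif18b, Kif20a, Kif20b, Kif22 and Kif23) reached the limit, with means from 0.0406 to 0.494 FPKM. Kif4, Kif2c and Kif14, which also act in cell division but were grouped by family, had means of 0.152, 0.0258 and 0.00989 FPKM, and Kif2b was listed at 0 in every library.

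Promoter sequence is shown for genes with wide departures of control library 1 in each direction. They are the extremes only among the 13 genes with a usable window, and others, such as Kif1a and Kif19a, departed as far or further. RefSeq promoters (GRCm38.p6) matched 27 of the 38 genes, and 13 of them had no annotated exon in the 150 bases before the start site. Kif26b and Kif1b were the lowest of those 13 in control library 1, at 0.367 and 0.463 of the median of the other 7 libraries. Kif9 and Klc3 were the highest, at 1.94 and 2.04 times that median. The windows lie at chr1:178528975-178529124 on the plus strand (Kif26b), chr4:149307734-149307883 on the minus strand (Kif1b), chr9:110476808-110476957 on the plus strand (Kif9) and chr7:19404105-19404254 on the minus strand (Klc3). Each is written 5′ to 3′ along its gene and ends at the base before the start site. Capitals mark the GC box core GGGCGG or its reverse complement and, in Klc3 only, GTTGCC, a part of the X-box that RFX factors, regulators of cilium genes, bind.
Kif26b: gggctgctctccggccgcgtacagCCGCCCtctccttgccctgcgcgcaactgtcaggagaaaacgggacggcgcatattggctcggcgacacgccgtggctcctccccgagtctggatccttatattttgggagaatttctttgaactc
Kif1b: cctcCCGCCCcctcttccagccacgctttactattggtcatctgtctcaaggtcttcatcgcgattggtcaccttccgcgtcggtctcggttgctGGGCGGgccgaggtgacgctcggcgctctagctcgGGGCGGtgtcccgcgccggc
Kif9: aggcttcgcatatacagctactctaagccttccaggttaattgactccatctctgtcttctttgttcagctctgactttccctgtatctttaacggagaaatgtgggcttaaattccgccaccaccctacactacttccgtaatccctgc
Klc3: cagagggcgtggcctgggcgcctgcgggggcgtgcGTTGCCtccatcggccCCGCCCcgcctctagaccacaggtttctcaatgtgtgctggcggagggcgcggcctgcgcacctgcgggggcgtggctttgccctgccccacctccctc

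Kif1b and Kif26b, both low in control library 1, have 66.7% and 60.7% G and C in these windows, and Kif9, which was high there, has 46.0%. Klc3 was also high there, and with 74.0% it is the richest of the 4. Next in order were Kif26a, at 0.472 of the median of the other 7 libraries, with 71.3%, and Dctn2, at 1.04, with 48.0%. A relation between base composition and these departures was not tested. Over the 250 bases before the start site, searched on both strands, GGGCGG was present in 16 of the 27 matched genes (59.3%) and in 33.0% of all 27025 promoters in the table. GTTGCC was present in 7 of 27 (25.9%) against 10.5%, the cAMP response element TGACGTCA in 4 (14.8%) against 1.6%, and the NRF1 core CGCATGCG in 4 (14.8%) against 1.58%. Dync1h1, Dync1li1, Kif26a and Kif3a held the NRF1 core, and Dctn3, Kif17, Kif5c and Klc1 the cAMP response element. A match says only that these letters are present. For each gene the RefSeq start farthest upstream was used. For 17 of the 27 genes, the 25 bases after that start were found in a GENCODE transcript of the gene. The 27025 promoters were not limited to genes expressed here, as the 27 were, so a difference in share was not tested as a property of motor genes.

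Cytoplasmic dynein 1 carries cargo toward the cell body. Its heavy chain Dync1h1 holds the motor, and its intermediate and light intermediate chains link the motor to dynactin and cargo. Dync1h1 (ENSMUSG00000018707, chr12:110601452-110666945) had 12.9 and 23.5 FPKM in control, 31.1 and 35.9 in vector, 37.0 and 29.9 in AKG, and 35.5 and 29.6 in combined libraries. Group means were 18.2 ± 7.49 FPKM in control, 33.5 ± 3.41 in vector, 33.5 ± 5.0 in AKG and 32.5 ± 4.23 in combined libraries (SD, n = 2 each). Both control libraries were below all others, and they differed from each other by more than any other group's libraries did.

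The other dynein 1 subunits did not share that pattern. The intermediate chain Dync1i1 had 36.5 and 43.4 FPKM in control, 38.7 and 40.4 in vector, 37.8 and 36.1 in AKG, and 38.5 and 41.1 in combined libraries. The second intermediate chain, Dync1i2, stayed between 15 and 17 FPKM in all 8 libraries, with 16.2 and 16.6 FPKM in control. Dync1li1, a light intermediate chain, had 27.2 and 33.7 FPKM in control and 30.2 to 31.8 in the other 6 libraries. Dync1li2 had 31.5 and 47.0 FPKM in control and 43.8 to 47.7 in the other 6. In none of these 4 were both control libraries below the other groups: control library 2 was above all 6 for Dync1i1 and Dync1li1 and inside their range for Dync1i2 and Dync1li2. Dync1i1 made up 69.3% to 73.3% of the 2 intermediate chains in all 8 libraries.

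Cytoplasmic dynein 2 returns cargo from the tip of the cilium, and its 2 described subunits diverged. The heavy chain Dync2h1 had 1.83 and 2.10 FPKM in control, 2.60 and 3.06 in vector, 3.31 and 2.54 in AKG, and 3.24 and 2.20 in combined libraries. The light intermediate chain Dync2li1 had 26.1 and 16.4 FPKM in control, 16.7 and 14.3 in vector, 15.4 and 15.9 in AKG, and 13.4 and 14.3 in combined libraries. Dync2h1 was lowest and Dync2li1 highest in control library 1. Dync2h1 is 16348 bases long and Dync2li1 1324, near the ends of the range of member lengths.

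Dynactin is the adaptor that makes dynein processive and joins it to cargo. Dctn1, the large subunit that grips the microtubule, had 50.3 and 72.1 FPKM in control, 80.7 and 79.1 in vector, 83.8 and 73.4 in AKG, and 76.4 and 76.9 in combined libraries. Dctn2, or dynamitin, had 45.5 and 48.4 FPKM in control, 43.5 and 42.1 in vector, 43.9 and 44.5 in AKG, and 43.2 and 47.1 in combined libraries. Dctn3, the smallest shoulder subunit, had 112 and 93.3 FPKM in control, 84.6 and 75.5 in vector, 79.5 and 85.0 in AKG, and 75.2 and 94.6 in combined libraries. Only Dctn1 had both control libraries below the other 6, whereas Dctn3 was highest in control library 1. The subunits of the pointed end, the part of dynactin that contacts cargo adaptors, include Dctn4, Dctn5 and Dctn6. Dctn4 was at 8.33 and 9.25 FPKM in control and 7.80 to 9.47 in the other 6 libraries. Dctn5 was at 27.7 and 27.5 FPKM in control and 22.7 to 25.2 in the other 6, so that its 2 control libraries agreed and were above the rest. Dctn6 was at 20.4 and 16.1 FPKM in control and 14.9 to 19.2 in the other 6. Kif1bp, the binding protein that is no motor, stayed between 25.8 and 29.5 FPKM in all 8.

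Over all 38 genes, both control libraries lay below the 6 others for 11 (Dctn1, Dync1h1, Dync2h1, Kif13a, Kif17, Kif1a, Kif1b, Kif21b, Kif26a, Kif3b and Kif3c), while 14.3% of the 13716 genes tested did so. They lay above the 6 others for 2 (Dctn5 and Klc4), against 12.2% of all genes tested. Control library 1 alone was lowest of the 8 for 23 of 38 members and for 36.3% of all genes tested, and highest for 7 of 38 and 31.6%.

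Gene length ordered these departures. Among the 19 members longer than the median of 6434 bases, the median deviation of control library 1 from the 8-library mean was -0.61 on the log2(FPKM + 1) scale, and among the shorter 19 it was 0.03. In control library 2 the medians were -0.03 for the longer and 0.10 for the shorter members. Spearman's rho between deviation and length over the 38 genes was -0.68 and -0.49 in the control libraries, 0.41 and 0.62 in vector, 0.67 and 0.45 in AKG, and 0.75 and -0.01 in combined libraries. These are descriptions across genes of 1 library, which share its RNA and its depth. Over all genes tested the same measure was -0.52 and -0.28 in control, 0.26 and 0.45 in vector, 0.44 and 0.10 in AKG, and 0.47 and -0.17 in combined libraries. The relation with length was thus not particular to transport genes. Library preparation or RNA quality as a source of it was not tested.

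**Figure D2:**
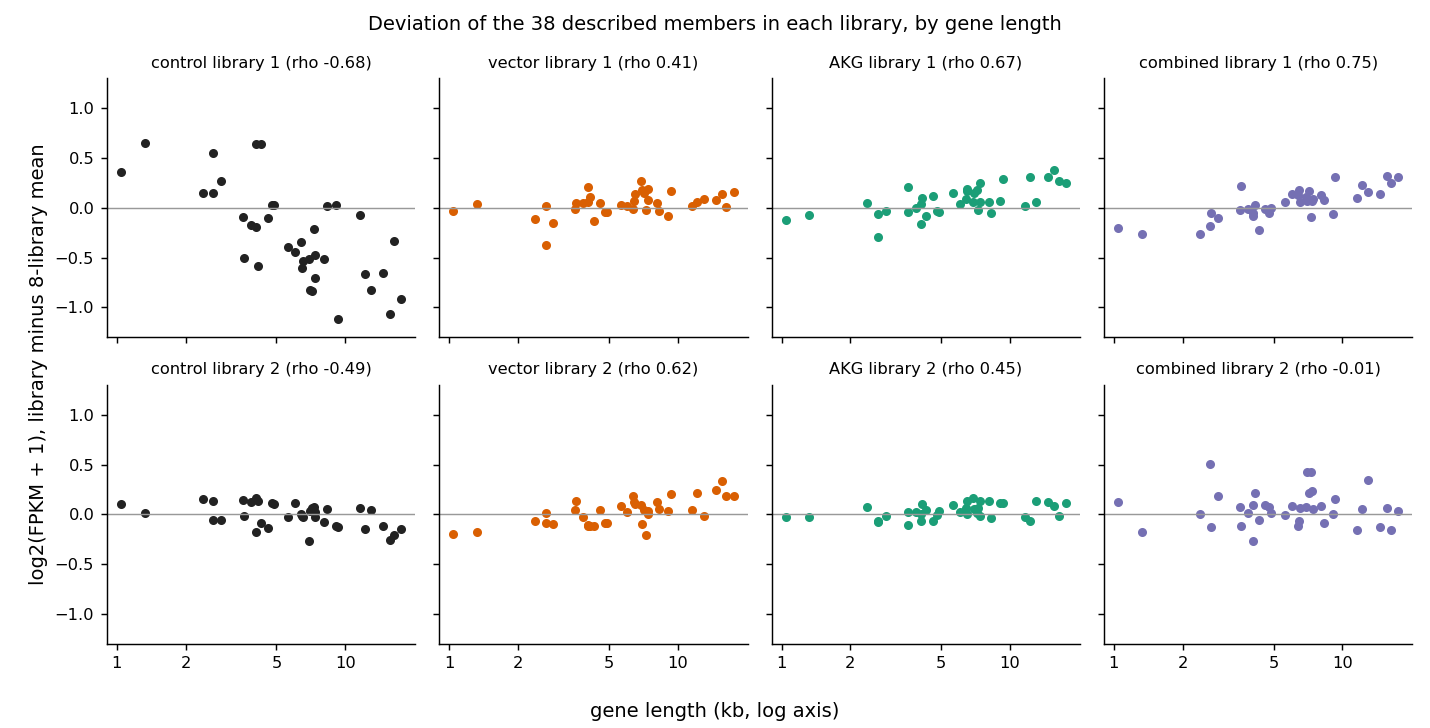
Deviation of each of the 38 genes from its 8-library mean, in log2(FPKM + 1), against gene length in kilobases (log axis), 1 panel per library with Spearman's rho in its title. In control library 1 most of the longer genes lie below 0 and several short ones above (rho -0.68), and in combined library 2 there is no trend (rho -0.01).

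Whether the vector, AKG or both changed the motor genes was tested with limma on log2(FPKM + 1) over all 13716 genes that averaged 1 FPKM or more, with Benjamini-Hochberg adjustment and a threshold of 0.05. The 3 comparisons with control share the same 2 control libraries, so their likeness is not independent. None of the 38 members passed in vector against control, where 0% of all genes passed, in AKG against control, where 0.00729% passed, or in combined against control, where 0% passed. The smallest adjusted p of a member was 0.294, 0.269 and 0.349 in the 3 comparisons. At an unadjusted p under 0.05 there were 7 members higher and 0 lower with the vector, 10 and 0 with AKG, and 7 and 3 with both, against 1271 higher and 1034 lower, 1445 and 986, and 1195 and 712 of all genes tested. Without control library 1 the median difference was 0.02, 0.06 and 0.08 over the members and -0.016, -0.011 and -0.012 over all genes tested. With a trend with gene length removed from every library, the members' counts were 3 and 1, 4 and 2, and 4 and 2. All genes then gave 932 and 799, 1099 and 960, and 917 and 775. When only the groups compared were fitted, the members' counts were 2 and 0 in each. All genes then gave 655 and 577, 703 and 475, and 482 and 241. A fit of recovered reads with limma's voom weights also called 0 members in each. It counted 8 and 0, 11 and 0, and 8 and 3 members at an unadjusted p under 0.05. Over all genes it counted 1477 and 944, 1608 and 884, and 1374 and 652. With control library 2 left out, so that control library 1 alone stood for control, 20, 21 and 20 members passed among 3359, 3376 and 2916 of all genes, and with control library 1 left out 0 passed in each.

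In vector against control, 24 of 38 members had a mean above control, and their median difference was 0.20 on the log2(FPKM + 1) scale, beside -0.0087 and 48.8% of genes above control over all genes tested. The numbers were 25 of 38 and 0.22 with AKG (all genes -0.0098 and 48.6%) and 25 of 38 and 0.24 with both (all genes -0.0055 and 49.2%). Without control library 1 the members' medians were 0.02, 0.06 and 0.08, with 20, 22 and 24 of 38 above control. The positive medians thus rested mainly on that library, in which 7 of the 8 neuron markers were also lowest; their part in the result was not tested.

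The largest differences were in long genes. Dync1h1 differed from control by 0.90 ± 0.26 (SE; adjusted p = 0.294) with the vector, 0.89 ± 0.26 (0.269) with AKG and 0.85 ± 0.26 (0.349) with both, and without control library 1 by 0.49, 0.48 and 0.45. Kif1a differed by 0.81 ± 0.29, 0.82 ± 0.29 and 0.85 ± 0.29, and without that library by 0.31, 0.33 and 0.36. Kif1b differed by 0.70 ± 0.24, 0.71 ± 0.24 and 0.71 ± 0.24, and without it by 0.32, 0.33 and 0.32. In these 3 genes between 0.31 and 0.49 of a log2 unit remained against control library 2 alone, in each case without passing the test. They are 15658, 9330 and 17608 bases long. In control library 2 the rho between deviation and length over the members was -0.49. With the length trend removed as well, the members' median difference was -0.018, 0.032 and 0.033. The part of gene length in what remained for these 3 genes was not tested. Kif26a had the smallest unadjusted p of all members in the 3 comparisons (0.00442, 0.00850 and 0.0101) and kept most of its difference without control library 1: it differed by 0.57 ± 0.14, 0.50 ± 0.14 and 0.48 ± 0.14, and without it by 0.45, 0.38 and 0.37.

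The differences of the kinesin-1 heavy chains were much smaller without control library 1. The difference of Kif5a was 0.44 ± 0.28 with the vector, 0.50 ± 0.28 with AKG and 0.65 ± 0.28 with both, and became 0.02, 0.07 and 0.21 without control library 1. For Kif5c the values were 0.49 ± 0.27, 0.48 ± 0.27 and 0.58 ± 0.27, and 0.04, 0.03 and 0.13 without it. Kif13b showed 0.42 ± 0.26, 0.49 ± 0.26 and 0.64 ± 0.26, and -0.01, 0.05 and 0.21 without that library.

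Of the 38 members, 14, 13 and 13 had means below control in the 3 comparisons, several short genes among them. Dync2li1 differed by -0.40 ± 0.20 with the vector, -0.38 ± 0.20 with AKG and -0.55 ± 0.20 with both (adjusted p = 0.319, 0.337 and 0.349), and without control library 1 by -0.08, -0.06 and -0.23. Dctn5 differed by -0.13 ± 0.09, -0.21 ± 0.09 and -0.23 ± 0.09, and Klc4 by -0.24 ± 0.11, -0.09 ± 0.11 and -0.28 ± 0.11. Those 2 genes kept nearly the same values without control library 1: -0.12, -0.20 and -0.23 for Dctn5, and -0.24, -0.09 and -0.28 for Klc4. Dctn3, at -0.35 ± 0.16 with the vector, moved to -0.22.

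**Figure D3:**
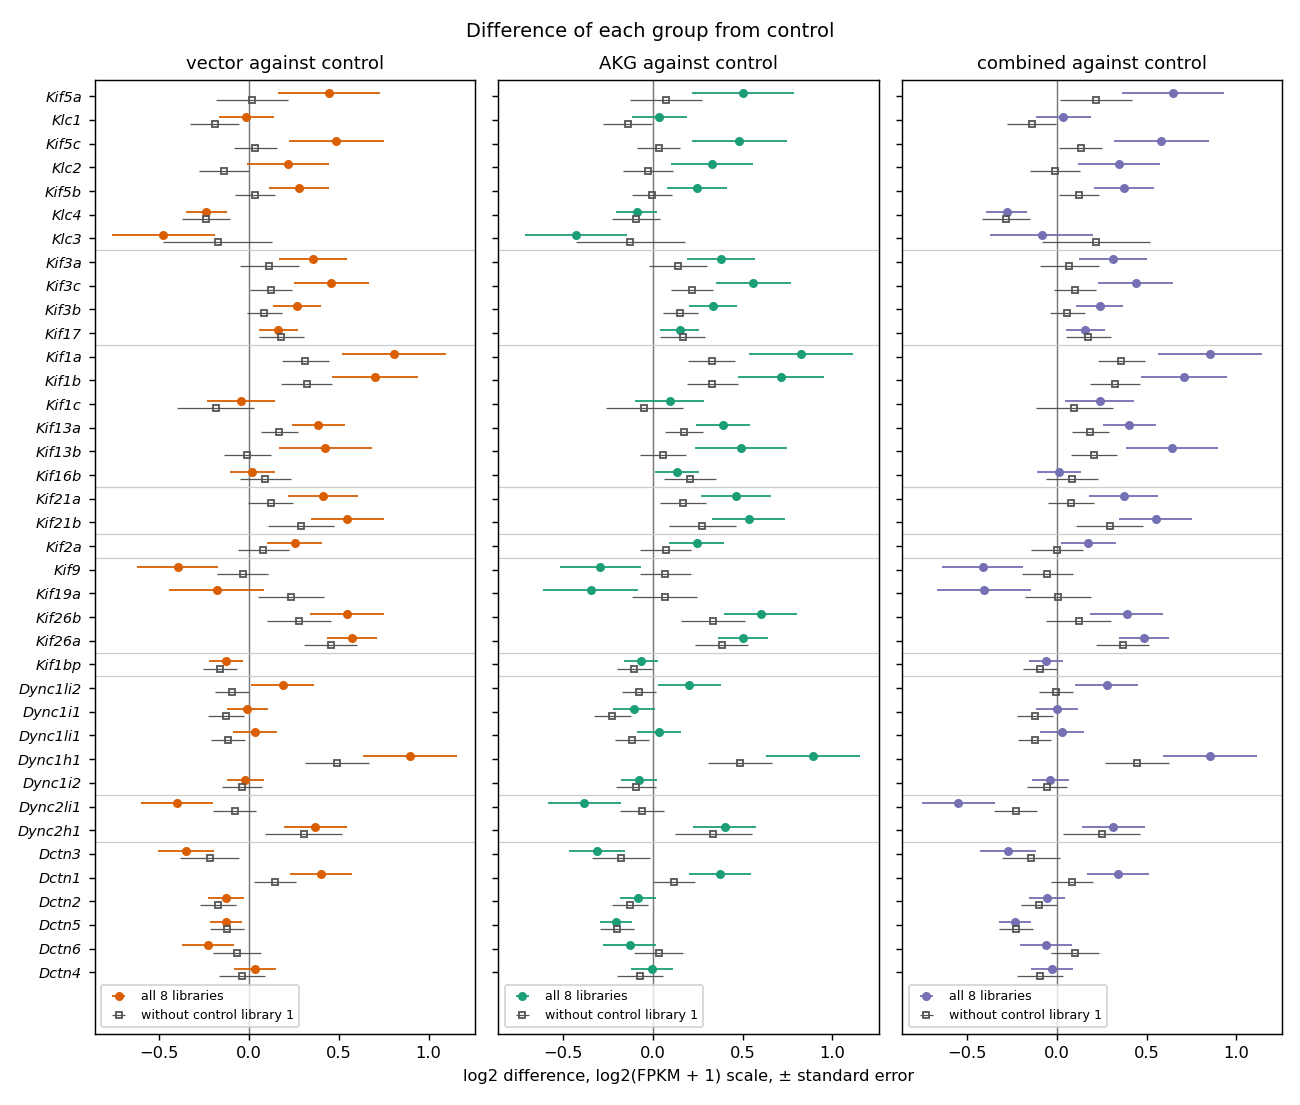
Difference from control for the 38 genes in the vector, AKG and combined groups on the log2(FPKM + 1) scale, with standard errors; filled circles use all 8 libraries and open squares leave out control library 1. Most positive differences shrink toward 0 without that library, as for Kif5a with the vector (0.44 to 0.02), while Kif26a (0.57 to 0.45) and Klc4 (-0.24 in both) move little.

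By role, the 6 described kinesin-3 genes had median differences of 0.41, 0.44 and 0.52 in the 3 comparisons with control, and 0.13, 0.19 and 0.20 without control library 1, with 5, 6 and 6 genes above control in the first case and 4, 5 and 6 in the second. Kinesin-2 medians were 0.31, 0.36 and 0.27, and 0.12, 0.16 and 0.08 without that library, with 4 of 4 genes above control throughout. For kinesin-1 the direction turned with the vector and AKG: the medians were 0.22, 0.24 and 0.35, and -0.14, -0.03 and 0.12 without it. Those of dynein 1 also turned, from 0.03 in all 3 to -0.09, -0.10 and -0.05. Dynactin medians were -0.13, -0.11 and -0.06 with 2, 1 and 1 of 6 genes above control, and -0.10 in all 3 with 1, 2 and 2 of 6 without it. Kinesin-2 and kinesin-3 were thus positive and dynactin negative in all 3 comparisons under both choices of control. No gene of any group passed the test, and differences between groups were not tested. Dynactin and dynein 2 hold the shortest members (1042 and 1324 bases for Dctn3 and Dync2li1), and kinesin-3 genes run from 7276 to 17608 bases. Over the 38 genes Spearman's rho between difference and length was 0.75, 0.77 and 0.73 in the 3 comparisons, a description that rests on shared control libraries. With a trend with length, fitted over all genes tested, removed from every library, the median member difference was 0.09, 0.08 and 0.07.

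Among other genes of the transport pathway, outside the name rule, the counts also depended on control library 1. Of 30 adaptors and cofactors of kinesins, 26, 25 and 25 had means above control with the vector, AKG and both, with medians of 0.26, 0.24 and 0.31; without that library these were 22, 18 and 19, with medians of 0.08, 0.07 and 0.08. The mitochondrial adaptor Trak1 was at 7.04 and 9.44 FPKM in control and 10.8 to 12 in the other 6 libraries. It differed by 0.39 ± 0.14 with the vector, or 0.20 without control library 1. Its relative Trak2 went the other way without that library, at -0.34, -0.37 and -0.05 with the vector, AKG and both. Of 26 dynein light chains and regulators, 11, 13 and 11 were above control, with medians of -0.05, -0.0045 and -0.03, and 10, 11 and 9 without it, with medians of -0.04, -0.03 and -0.04. The short light chain Dynlrb1 had 207 and 187 FPKM in control and 134 to 160 elsewhere. The actin motor Myo5a, a vesicle carrier encoded by a long gene, had 12.4 and 23.7 FPKM in control and 27.6 to 33.0 in the other 6 libraries. All 4 measured myosin transport motors had means above control in each comparison, and 4, 3 and 4 without control library 1.

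Of 16 tubulins and microtubule-associated proteins, which form the tracks, 7, 8 and 8 were above control, with medians of -0.07, 0.0014 and 0.005. Without control library 1 there were 5, 6 and 5, with medians of -0.18, -0.18 and -0.21. One of them, Map1a, which stabilises neuronal microtubules, had 22.7 and 48.1 FPKM in control and 66.5 to 79.7 in the other 6 libraries. Its difference was 1.10 ± 0.31 with the vector, or 0.57 without control library 1. The tubulins went the other way in the latter case, from -0.37 for Tuba1a to -0.12 for Tuba1c with the vector. Of 18 intraflagellar transport genes, which use kinesin-2 and dynein 2 in cilia, 4, 6 and 4 were above control, with medians of -0.11, -0.04 and -0.15; without control library 1 the counts were 8, 11 and 10 and the medians -0.02, 0.07 and 0.02, so that the direction turned with AKG and with both. Ift20, a short gene of that list, had 39.7 and 32.2 FPKM in control and 24.9 to 30.0 elsewhere. Of the 2 measured genes of the C-terminal kinesin family, both were above control in all 3 comparisons, and 1, 2 and 1 without that library. No gene of these 6 lists passed the limma test in any comparison.

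Comparisons without the control libraries ask whether AKG altered motor genes in mice with the vector, and whether the vector altered them in mice given AKG. No member passed in combined against vector or in combined against AKG, where 0% of all genes passed in both. In neither did a member reach an unadjusted p under 0.05 with limma, against 186 and 156 of all genes. With voom, 0 members were called and 0 counted at that level, against 119 and 101 of all genes. Median differences were -0.0053 and -0.0031. The range over the 38 genes was -0.23 (Kif19a) to 0.39 (Klc3) against the vector and -0.21 (Kif26b) to 0.34 (Klc3) against AKG. In these 6 libraries the most abundant member, Kif5a, ranged from 292 to 418 FPKM, Klc1 from 154 to 180, Kif1a from 134 to 154 and Dync1h1 from 29.6 to 37.0 FPKM. The largest positive differences, Klc3 at 0.39 ± 0.29 and Kif1c at 0.28 ± 0.19 against the vector, came from combined library 2 alone, where these genes read 2.26 and 36.1 FPKM against 1.03 and 24.7 in combined library 1. The median standard error of a member's difference was 0.17. It rests on the spread within all 4 groups, control included, and so is not the resolution of these 6 libraries alone. When limma was fitted to only the groups compared, 0 members reached an unadjusted p under 0.05, against 297 and 255 of all genes.

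**Figure D4:**
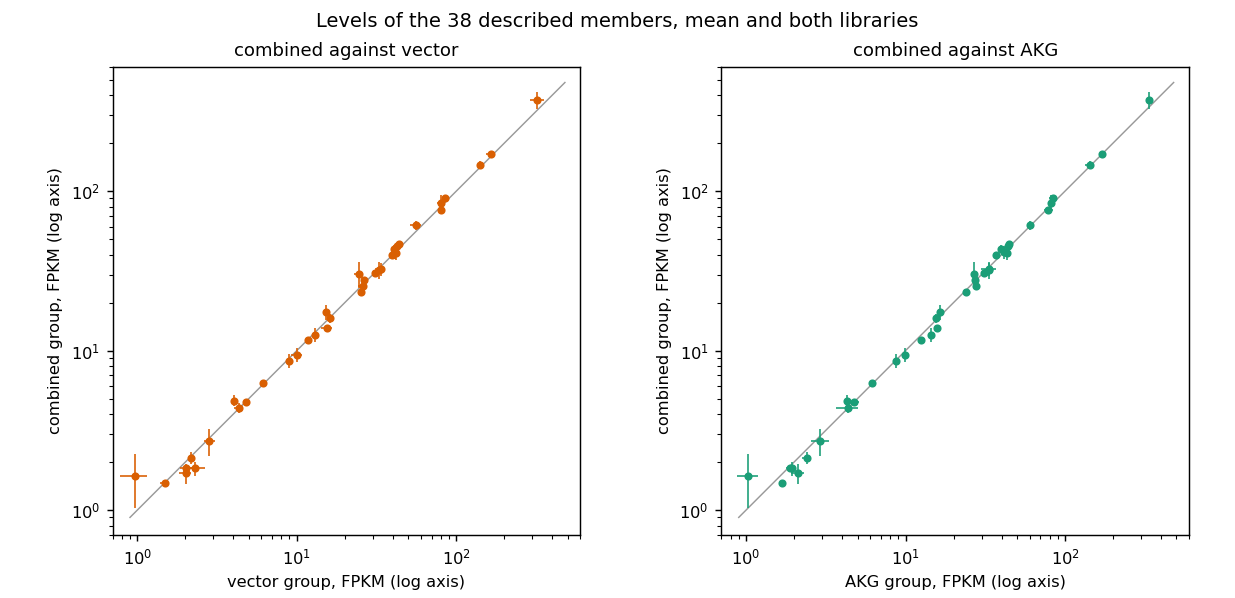
Mean FPKM of the 38 genes in the combined group against the vector group (left) and the AKG group (right) on log axes; lines through each point reach to both libraries of each group and the diagonal marks equal levels. The points follow the diagonal, and the gene farthest from it is Klc3, whose combined libraries were at 1.03 and 2.26 FPKM.

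An interaction term asked whether the vector and AKG together gave more or less than the sum of their separate differences from control. No member passed, 0% of all genes passed, and the smallest adjusted p of a member was 0.537. For 3 members, Kif26a, Dync1h1 and Kif26b, the limma test gave an unadjusted p under 0.05, against 998 of all genes tested. Their interaction values were -0.59 ± 0.20, -0.93 ± 0.37 and -0.76 ± 0.29. With voom, 0 members were called, and 0 higher and 3 lower reached that level, against 430 and 656 of all genes. Kif26a and Dync1h1 were low in control and about equal in the other 3 groups, so their separate differences did not add up. Kif26b was also low in control, but its combined mean of 1.70 FPKM was below its vector (2.01) and AKG (2.12) means. The median over the 38 was -0.15, with 14 above 0, and -0.04 with 19 above 0 when control library 1 was left out. Without that library the values were -0.47 for Kif26a, -0.53 for Dync1h1 and -0.49 for Kif26b. With control library 2 left out instead, 10 members passed, all lower, among 1369 of all genes.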

How the data were processed

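The deposited table holds 1 FPKM value per gene and library, made by the authors; per the submitters' processing notes the build was GRCm38 (mm10), while aligner, counter and annotation version were not given in the sources used here. Gene positions and lengths are as deposited. Each FPKM value was turned back into reads: within a tolerance of 0.01 read, 100% came out whole in every library, and this gave the depths. Members were chosen by symbol, and the members, role groups and lists were chosen with earlier results of these data known.

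Differences were tested two-sided with limma 3.58.1 in R 4.3.3 on log2(FPKM + 1), with 1 mean per group over all 8 libraries, a mean-variance trend and Benjamini-Hochberg adjustment over the 13716 genes that averaged 1 FPKM or more; a pseudocount of 1 understates the change of low genes. Standard errors rest on 4 residual degrees of freedom and a prior of 2.98. The script was tested on simulated data whose spread was taken without control library 1, so that test does not cover the spread which that library adds. Named genes were a fixed set of 27, up to 3 per direction and comparison with the smallest unadjusted p, and those at the ends and around the limit. Kif13a, Kif9 and Kif1bp, and the pathway genes Trak1, Trak2, Dynlrb1, Myo5a, Map1a, Tuba1a, Tuba1c and Ift20, fall outside this rule. They were picked with their values known. Alternatives were a pseudocount of 0.1, a minimum of 5 FPKM or none, quantile normalization, median-of-ratios scaling, voom on the recovered reads, a fit of only the groups compared, removal of a spline trend (5 degrees of freedom) with gene length, a replicate block, and leaving out each library; leaving out control library 1 together with the length trend was added after seeing the data. Promoters came from RefSeq (GRCm38.p6) and exon overlaps from GENCODE.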

Additional observations from a re-analysis of the deposited data

How the results depend on the processing

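No member passed in any of the 6 comparisons with all 8 libraries, and this held under all alternatives except 1. Without control replicate 2, which leaves the deviating control library alone and assumes that it varies like the other groups, 20 members passed with the vector (18 higher, 2 lower), 21 with AKG (18 and 3), 20 with both (17 and 3) and 10 in the interaction (0 and 10), with 3359, 3376, 2916 and 1369 of all genes tested; leaving out any other library gave 0. The members' median difference then ranged from 0.023 (without control replicate 1) to 0.43 (without control replicate 2) with the vector, 0.060 to 0.44 with AKG, 0.081 to 0.38 with both, and -0.40 to -0.035 in the interaction. With the length trend removed it was 0.078 with AKG and 0.071 with both, and the same with the replicate block. Without control replicate 1 and with the length trend removed it was -0.018, 0.032 and 0.033 in the 3 comparisons with control. Under that last alternative the sign turned for Dync2li1 (0.056 with the vector, 0.048 with AKG), Kif5a (-0.049 with the vector), Kif5c (-0.032 and -0.040) and Kif13b (-0.18 and -0.12). For Kif13b with the vector, leaving out 1 library gave -0.0097 to 0.86. Of 1059 values of named members under alternatives, 1016 kept direction and side of the threshold, 35 passed it only without control replicate 2, and 8 turned sign. Without a filter on low values 5, 12, 4, 6, 14 and 0 of all genes passed in the 6 comparisons, and 0 members. Deviations of same-numbered libraries had correlations of -0.32 to 0.34 across genes, with no common sign. Trends across a whole library also enter these correlations, so they cannot show whether the numbers mark pairs or batches. The numbers were not taken as pairs. With the replicate block 0 members passed, the median with the vector was 0.20, and the 1 gene called with AKG was lost. Kif26a, 1 of the least abundant described genes, had at least 116 recovered reads in every library; with 2 libraries a group, the choice of control library changed the calls.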
